A study of Mus musculus with 10 samples.

Results

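Chaperones are proteins that help other proteins reach and keep their fold, and heat shock proteins are the chaperones whose genes are best known for induction by heat and other stress. The members described here were taken by name: the rows of the rate table whose gene symbols begin with the names of heat shock protein, J protein, chaperonin, prefoldin, immunophilin or Bag genes. The rule found 71 of the 8590 genes in the table. They were 6 Hsp70 and Hsp110 genes, 31 J protein genes (3 Dnaja, 7 Dnajb and 21 Dnajc), 8 subunits of the CCT chaperonin, 4 prefoldin subunits, the pair of mitochondrial chaperonin genes Hspd1 and Hspe1, 6 FKBP and 8 cyclophilin prolyl isomerases, 4 Bag co-chaperones, and Hspb11 and Hspbp1. Of a list of 60 chaperone genes chosen by role, 40 were in the table, and the others, among them Hspa8, Hspa5, the Hsp90 genes and Ppia, were not analysed here. The symbol names the family and not always the work: the product of Hspb11 is known as a subunit of the intraflagellar transport complex of cilia.

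In the Hsp70 cycle, a J protein brings a client and triggers ATP hydrolysis, which locks the client in place, and nucleotide exchange factors of the Hsp110, Bag and HspBP1 families release it. Actin and tubulin take another path, in which prefoldin hands the new chain to the ring-shaped CCT chaperonin. Neurons depend on these systems because they do not divide and cannot dilute misfolded proteins, and they use some J proteins for synaptic work, such as auxilin (Dnajc6), which uncoats clathrin-coated vesicles.

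The neurons came from cerebral cortices of mice at embryonic day 18 and were cultured for 14 days. All carried the strain background FVB.129P2-Pde6b+ Tyrc-ch/AntJ, an FVB line with a functional Pde6b allele and the chinchilla allele of Tyr. One group was labelled wild type and the other Fmr1-KO, for a knockout of the gene for FMRP, the RNA-binding protein lost in fragile X syndrome. Each genotype had a library of RNA labelled with 200 µM 5-ethynyluridine for 20 min and another labelled for 60 min. New RNA, carrying the label, was pulled down and set against total RNA by the INSPEcT method, which estimates how fast each transcript is made (synthesis), spliced (processing) and removed (degradation). These 4 labelled libraries carry all rates below, and the 2 labelling times of a genotype stand as its 2 replicates. Nothing in the labels says whether they came from separate cultures, so p-values measure only the spread between these libraries. For most members the wild-type ratio of synthesis rate over degradation rate was the same at both times, so the wild-type values are not 2 independent estimates. How far this lowers the SEs and p-values was not tested.

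The rates are printed in the units of the deposited table, whose time unit is not stated, and the depth behind them is unknown. In Fmr1-KO cells the targeted gene, Fmr1, had degradation rates of 2.58 (20 min) and 2.66 (60 min), against 0.0774 and 0.0672 in wild-type cells. Its synthesis rates were 2.06 and 1.56 in Fmr1-KO cells and 0.810 and 0.692 in wild-type cells, so the rate table shows no loss of Fmr1 synthesis in the libraries labelled Fmr1-KO. Defining markers of neurons were largely absent from the table: 3 of 12 had a row (Rbfox3, Gad2 and Nefl), as did 3 of 8 for astrocytes, 5 of 8 for the oligodendrocyte lineage, 1 of 3 for fibroblasts, and none of the microglial or endothelial markers. One marker of each of the first 3 types had rates in all 4 libraries, and the ratio of its synthesis rate over its degradation rate was taken. For the neuronal marker Rbfox3 it was 34.3 in both wild-type libraries and 10.8 and 5.44 in those of the knockout. For the astrocyte marker Aldh1l1 it was 39.3 in both, and 34.1 and 29.9. For Olig2, of the oligodendrocyte lineage, it was 45.7 in both, and 61.4 and 70.3. A further marker of each glial type had the ratio in 1 knockout library only: it was 148 at 20 min against 23.6 in wild type for the astrocyte marker Gja1, and 11.0 at 60 min against 1.72 for Mbp, of the oligodendrocyte lineage. Other markers had the ratio in wild type only: the neuronal Gad2, the astrocyte Aqp4, the fibroblast Dcn, and Sox10, Pdgfra and Cspg4 of the oligodendrocyte lineage. Nefl had it in no library. The part of these cell types in the results below was not tested.

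In Fmr1-KO neurons, the degradation rates of some chaperone transcripts were many times higher or lower than in wild type. Transcripts of the prefoldin subunit Pfdn5, the endoplasmic reticulum isomerases Fkbp2 and Fkbp9 and the J protein Dnajc9 were degraded 8.73 to 12.1 times as fast in the knockout. With each library centred on its median, their log2 changes went from between 3.13 and 3.59 to between 2.27 and 2.74, and none of the 4 passed (limma adjusted p of 0.0502 to 0.0517). Transcripts of the endoplasmic reticulum J proteins Dnajb9 and Dnajc1 were degraded at 0.196 and 0.310 times the wild-type rate. Centring moved their log2 changes from −2.35 and −1.69 to −3.21 and −2.55 (limma adjusted p = 0.0497 and 0.0516). The share of members called was close to that of all genes. A degradation rate was listed in all 4 libraries for 48 of the 71 members, and 11 of them (22.9%) had an adjusted p under 0.05 by limma, beside 23.1% of the 5716 genes tested. Higher degradation rates were called for 9 members (18.8%, beside 20.5% of all genes) and lower rates for 2 (4.17%, beside 2.57%). In these bulk cultures, fewer cells of a type and less RNA per cell cannot be told apart.

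The median log2 change in degradation rate, knockout minus wild type, was 0.57 over the 48 members and 0.65 over all genes. It was 0.73 at 20 min and 0.31 at 60 min for the members. The change lay above 0 for 29 members (60.4%, beside 68.1% of all genes). Both knockout libraries lay above both wild-type libraries for 24 members (50.0%, beside 52.6%) and below both for 11 (22.9%, beside 16.5%). The sign differed between labelling times for 8 members. Centring each library on its own median log2 rate took away a shift of 0.86 between genotypes, and the median of the members then stood at −0.28. The median of all genes, 0.65, was also smaller than this shift, so it fell below 0 as well. Centring takes the same amount from every gene, so any change between 0 and 0.86 must turn negative. This was so for 12 members, among them Cct2, Cct7, Cct8, Pfdn2, Bag2 and Dnajc6, and 0 of them were called. The count follows from the shift and is no result about chaperone genes.

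**Figure D1:**
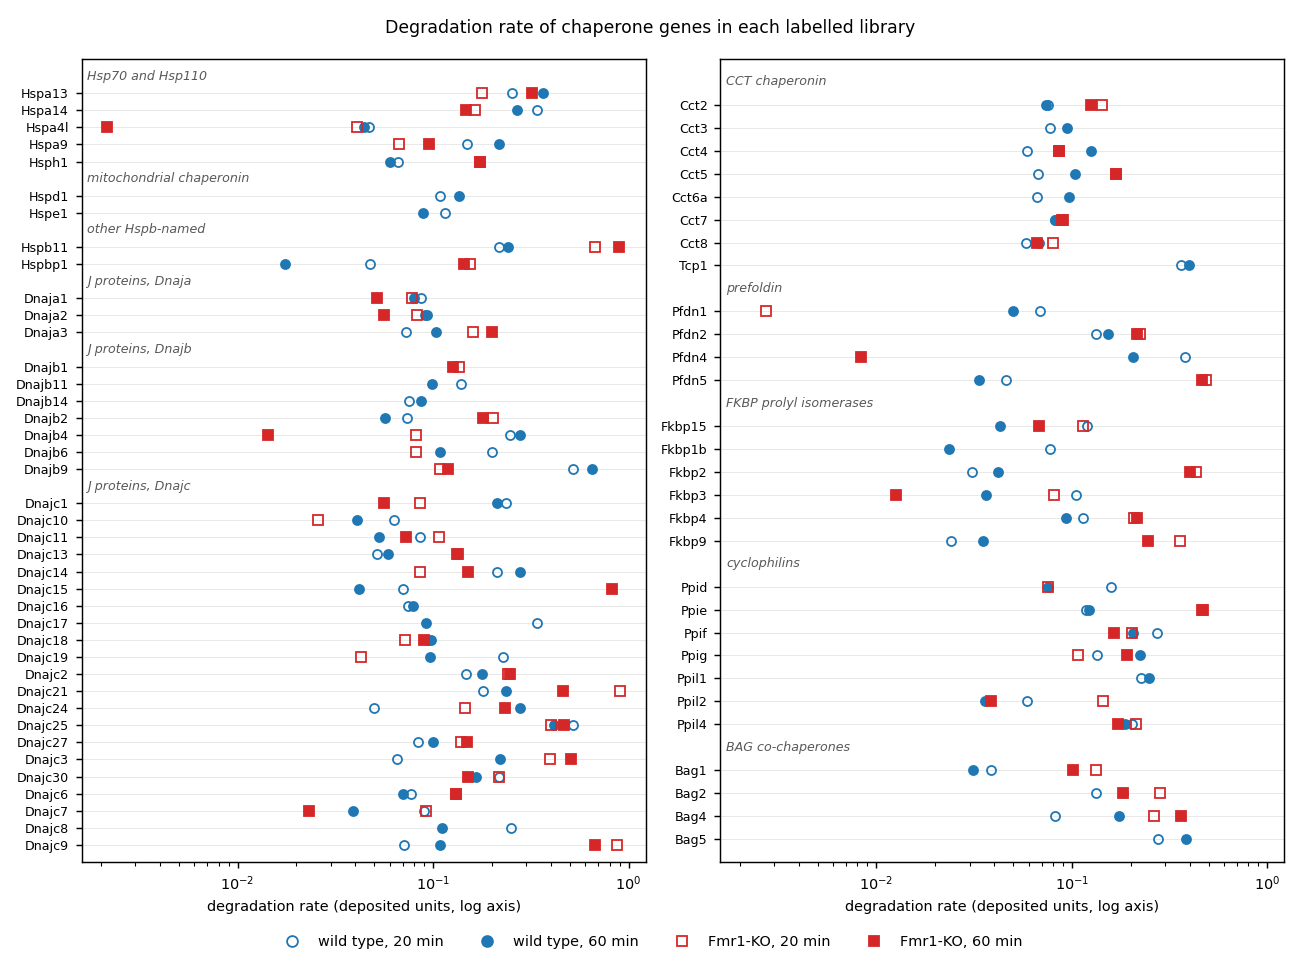
Degradation rate (deposited units, log axis) of each chaperone gene with a listed rate, by family, in the 4 labelled libraries; circles are wild type, squares are Fmr1-KO, open symbols 20 min and filled symbols 60 min. The knockout squares of Pfdn5, Fkbp2, Fkbp9 and Dnajc9 stand far to the right of the wild-type circles, those of Dnajb9 and Dnajc1 to the left, and 13 genes have circles only.

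Among the Hsp70 and Hsp110 genes, 1 of 5 tested passed (beside 23.1% of all genes). The other 4 had changes below 0, while 68.1% of all genes had changes above 0, and this difference was not tested. Hsph1 (chromosome 5, 149614287 to 149636376, minus strand) encodes an Hsp110 protein, a nucleotide exchange factor for Hsp70. In wild-type cells it was degraded at 0.0658 (20 min) and 0.0601 (60 min), and in Fmr1-KO cells at 0.174 at both times. Both knockout libraries lay above both wild-type ones, and the rate rose 2.77-fold (log2 change 1.47, SE 0.31, limma adjusted p = 0.0409). With centring the log2 change was 0.61 and the call was lost (limma adjusted p = 0.226, or 0.134 with the block as well). The other tested genes of the family had changes below 0 and did not pass without the block. Hspa9 encodes mortalin, the Hsp70 of mitochondria, and had degradation rates of 0.150 and 0.217 in wild-type cells and 0.0668 and 0.0955 in Fmr1-KO cells. The 2 knockout values lay below both wild-type values (log2 change −1.17, limma adjusted p = 0.0981, or 0.0320 with labelling time as a block and 0.0298 with the block and centring). Hspa14, a ribosome-associated Hsp70, had rates of 0.341 and 0.269 in wild-type cells and 0.165 and 0.148 in Fmr1-KO cells (log2 change −0.96, limma adjusted p = 0.103, or 0.0299 with the block and centring, where the log2 change was −1.81). Hspa4l, a relative of Hsp110, was close to wild type at 20 min (0.0472 and 0.0408) and far below it at 60 min (0.0444 and 0.00215), so its log2 change of −2.29 rests on 1 library (SE 1.47, limma adjusted p = 0.297). In the authors' deposited table the change of Hspa4l was −0.28. Hspa13 gave rates of 0.253 and 0.363 in wild-type cells and 0.177 and 0.320 in Fmr1-KO cells. The groups overlap, but the knockout value was the lower one at each time (log2 change −0.35, limma adjusted p = 0.598, or 0.0451 with the block and centring, where the log2 change was −1.20).

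Among 21 J protein genes tested, 2 were called higher (9.52%, beside 20.5% of all genes) and 2 lower (9.52%, beside 2.57%), and the difference from all genes was not tested. The called falls were those of Dnajb9 and Dnajc1. Dnajb9 (chromosome 12, 44205559 to 44210326, minus strand) encodes an endoplasmic reticulum J protein that is known as a target of the unfolded protein response. In wild-type cells its transcript was degraded at 0.520 (20 min) and 0.653 (60 min), the highest rates among the members, with Dnajc25 level at 20 min (0.519). In Fmr1-KO cells it was degraded at 0.109 and 0.120. The groups did not overlap, and the rate fell 5.11-fold (log2 change −2.35, SE 0.33, limma adjusted p = 0.0235). Dnajc1 (chromosome 2, 18195654 to 18392830, minus strand) encodes a membrane J protein of the endoplasmic reticulum that binds ribosomes. Its rates were 0.235 and 0.212 in wild-type cells and 0.0858 and 0.0558 in Fmr1-KO cells, 3.23-fold lower (log2 change −1.69, SE 0.38, limma adjusted p = 0.0447). Dnajc3, whose product sits in the lumen of the same organelle, had rates of 0.0650 and 0.219 in wild-type cells and 0.398 and 0.507 in Fmr1-KO cells. Both knockout values were above both wild-type values, but the wild-type libraries differed widely (log2 change 1.91, SE 0.68, limma adjusted p = 0.106, or 0.0323 with the block and 0.130 with the block and centring). Dnajc25 had 0.519 and 0.416 in wild-type cells and 0.403 and 0.467 in Fmr1-KO cells, with opposite directions at the labelling times. Dnajb11 had wild-type rates only, of 0.140 and 0.0989, and Dnajc10 lacked a rate in the knockout 60 min library, with 0.0258 at 20 min against 0.0628 in wild type.

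The called rises among J proteins were those of Dnajc9 and Dnajb2. Dnajc9 (chromosome 14, 20384638 to 20388910, minus strand) encodes a J protein that also acts as a histone chaperone. Its degradation rate was 0.0713 and 0.108 in wild-type cells and 0.868 and 0.676 in Fmr1-KO cells (log2 change 3.13, SE 0.39, limma adjusted p = 0.0235). Dnajb2 (chromosome 1, 75236406 to 75245692, plus strand) encodes a J protein enriched in neurons that carries ubiquitin-binding motifs. Its rates were 0.0732 and 0.0569 in wild-type cells and 0.202 and 0.179 in Fmr1-KO cells (log2 change 1.56, SE 0.34, limma adjusted p = 0.0424). With centring the log2 change of Dnajb2 was 0.70 and the call was lost (limma adjusted p = 0.212, or 0.109 with the block as well), as it was with quantile normalization (0.137). For Dnajc9 and Dnajb2 the lowest knockout value was well above the highest wild-type value. Dnajb4, a close relative of Dnajb1, went the other way, with 0.249 and 0.279 in wild-type cells and 0.0820 and 0.0143 in Fmr1-KO cells (log2 change −2.94, SE 0.91, limma adjusted p = 0.0810, or 0.0366 with the block). With a library left out, the change of Dnajb4 ran from −4.20 to −1.68. The general cytosolic co-chaperone Dnaja1 stood at 0.0863 and 0.0795 in wild type against 0.0783 and 0.0515, and Dnaja2 at 0.0913 and 0.0934 against 0.0832 and 0.0563. In both the knockout values were the lower ones, more so at 60 min, and both passed as lower only with the block and centring together (limma adjusted p = 0.0439 and 0.0445). Dnaja3, the mitochondrial J protein, had rates of 0.0729 and 0.104 in wild-type cells and 0.160 and 0.201 in Fmr1-KO cells (log2 change 1.04, limma adjusted p = 0.108, or 0.0427 with the block and 0.579 with the block and centring). Auxilin (Dnajc6) had 0.0773 and 0.0702 in wild type and 0.131 at both times in the knockout, a log2 change of 0.83 (limma adjusted p = 0.120).

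The subunits of CCT assemble into a common ring, and none of the 5 compared passed (beside 23.1% of all genes). Of 8 subunits 5 had all 4 rates, and log2 changes in degradation rate ran from −0.01 (Cct4) to 1.01 (Cct5). Cct5 had rates of 0.0668 and 0.104 in wild-type cells and 0.168 and 0.167 in Fmr1-KO cells (limma adjusted p = 0.118). Cct7 had 0.0815 and 0.0823 in wild-type cells and 0.0889 and 0.0901 in Fmr1-KO cells (log2 change 0.13). For Cct4 and Cct8 the direction differed between labelling times. The remaining subunits, Tcp1, Cct3 and Cct6a, had rates in wild type only, as did the mitochondrial chaperonin genes Hspd1 and Hspe1.

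The 4 prefoldin subunits, by contrast, spread over a wide range. Pfdn5 (chromosome 15, 102326116 to 102331873, plus strand) had degradation rates of 0.0458 and 0.0334 in wild-type cells and 0.484 and 0.460 in Fmr1-KO cells. Its log2 change of 3.59 (SE 0.35, limma adjusted p = 0.0235) was the largest rise among the 48 members. Pfdn2 stood at 0.132 and 0.152 in wild-type cells and 0.222 and 0.214 in Fmr1-KO cells, without overlap (log2 change 0.62, limma adjusted p = 0.212). Pfdn1 and Pfdn4 had a single knockout rate each, and it was very low: 0.00272 for Pfdn1 at 20 min against 0.0685 in wild type, and 0.00833 for Pfdn4 at 60 min against 0.206. With 1 library each, these changes have no replicate check.

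Of 10 prolyl isomerase genes tested, 3 were called higher (30.0%, beside 20.5% of all genes) and 0 lower (beside 2.57%). Fkbp2 (chromosome 19, 6977741 to 6980501, minus strand) encodes a small FKBP of the endoplasmic reticulum. Its degradation rate was 0.0308 and 0.0418 in wild-type cells and 0.432 and 0.401 in Fmr1-KO cells (log2 change 3.54, SE 0.35, limma adjusted p = 0.0235). Fkbp9 (chromosome 6, 56832059 to 56879358, plus strand), a larger FKBP of the same organelle, had 0.0240 and 0.0350 in wild-type cells and 0.357 and 0.244 in Fmr1-KO cells (log2 change 3.35, SE 0.41, limma adjusted p = 0.0235). Both genes had knockout rates many times their wild-type rates at each time. Ppie (chromosome 4, 123127115 to 123139951, minus strand) encodes a nuclear cyclophilin of the spliceosome, with rates of 0.118 and 0.123 in wild-type cells and 0.465 and 0.469 in Fmr1-KO cells. Its rate rose 3.87-fold (log2 change 1.95, SE 0.31, limma adjusted p = 0.0263), and its libraries agreed closely within each genotype. With centring the log2 change was 1.09 (limma adjusted p = 0.0894, or 0.0461 with the block as well). Fkbp4, an Hsp90 co-chaperone, had 0.115 and 0.0928 in wild-type cells and 0.208 and 0.215 in Fmr1-KO cells (log2 change 1.04, limma adjusted p = 0.0845, or 0.0467 with the block and 0.617 with the block and centring). Ppif, the mitochondrial cyclophilin D, had 0.272 and 0.205 in wild-type cells and 0.203 and 0.165 in Fmr1-KO cells (log2 change −0.36, limma adjusted p = 0.472, or 0.0404 with the block and centring, where the log2 change was −1.22). Fkbp3, a nuclear FKBP, differed more between labelling times than between genotypes at 20 min, with 0.105 and 0.0365 in wild-type cells and 0.0806 and 0.0126 in Fmr1-KO cells. Its log2 change was −0.96 (limma adjusted p = 0.537, or 0.0407 with the block and centring, where the log2 change was −1.81).

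Among the Bag genes 3 were tested, Bag5 having no knockout rate, and only Bag1 passed (beside 23.1% of all genes). Bag1 (chromosome 4, 40936398 to 40948294, minus strand) had degradation rates of 0.0386 and 0.0313 in wild-type cells and 0.133 and 0.101 in Fmr1-KO cells (log2 change 1.74, SE 0.35, limma adjusted p = 0.0370). With centring the log2 change was 0.88 and the call was lost (limma adjusted p = 0.159, or 0.0664 with the block as well). Hspbp1, the gene of a nucleotide exchange factor, had 0.0475 and 0.0174 in wild-type cells and 0.154 and 0.145 in Fmr1-KO cells. Its log2 change of 2.37 (SE 0.58) narrowly missed the threshold (limma adjusted p = 0.0524) and passed with the block (0.0210), but not with the block and centring (0.0718). Bag4 had 0.0822 and 0.174 in wild-type cells and 0.263 and 0.364 in Fmr1-KO cells (log2 change 1.37, limma adjusted p = 0.115, or 0.0311 with the block and 0.226 with the block and centring), and Bag2 had 0.132 and 0.182 in wild-type cells and 0.282 and 0.183 in Fmr1-KO cells, higher at 20 min and level at 60 min (log2 change 0.55, limma adjusted p = 0.351; −0.30 with centring). Hspb11 (chromosome 4, 107253593 to 107279938, plus strand) had 0.217 and 0.241 in wild-type cells and 0.674 and 0.892 in Fmr1-KO cells (log2 change 1.76, SE 0.34, limma adjusted p = 0.0350). With centring its log2 change was 0.90 and the call was lost (limma adjusted p = 0.140, or 0.0693 with the block as well). Coordinates are those of GENCODE M21 on GRCm38.

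**Figure D2:**
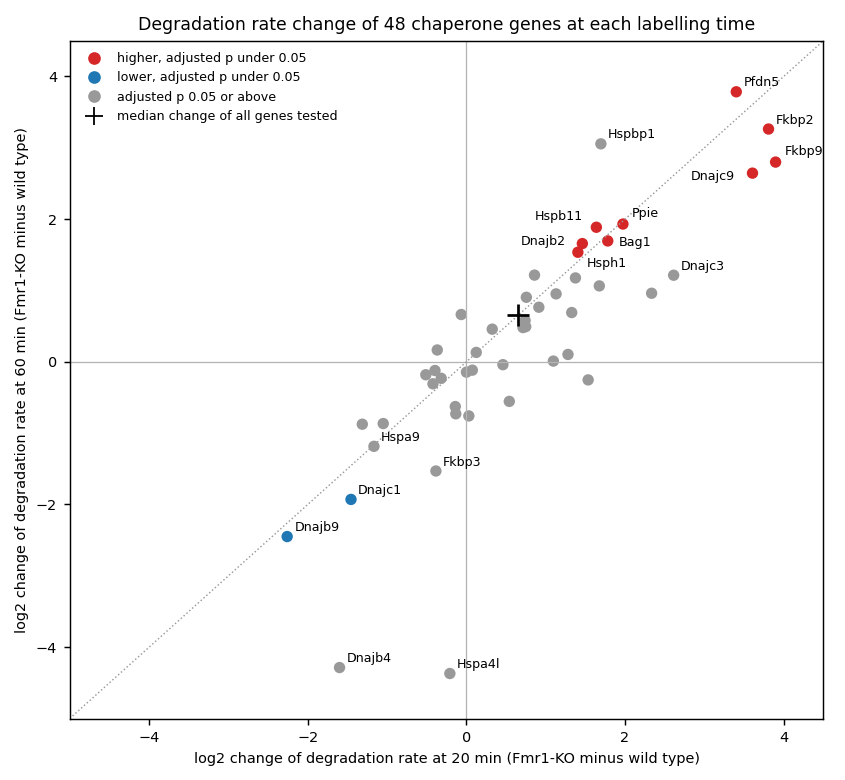
Log2 change of degradation rate (Fmr1-KO minus wild type) at 20 min (horizontal) and 60 min (vertical) for the 48 chaperone genes with all 4 rates. Red and blue points passed limma upward and downward, and the dotted line marks equal changes. The cross marks the median change of all genes over both times together, 0.65, drawn at that value on both axes, and not their medians at each time. The 11 called genes have the same sign at both times, while Hspa4l and Dnajb4 fall far below the dotted line at 60 min.

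These calls depend on how the libraries are set against each other. With labelling time as a block, 16 members were called higher (33.3%, beside 38.2% of all genes) and 5 lower (10.4%, beside 9.76%). All 11 members called without the block were among these 21, and the lower ones were Dnajb4, Dnajb9, Dnajc1, Dnajc14 and Hspa9. With each library centred on its median and no block, only Dnajb9 passed (2.08%, beside 1.61% of all genes; limma adjusted p = 0.0497), while Pfdn5 and Fkbp2 were at 0.0502. With the block and centring together, 5 members were called higher (10.4%, beside 13.9%), namely Dnajc9, Fkbp2, Fkbp9, Pfdn5 and Ppie, and 13 were called lower (27.1%, beside 22.4%). Those called lower were Dnaja1, Dnaja2, Dnajb4, Dnajb9, Dnajc1, Dnajc14, Dnajc18, Fkbp3, Hspa9, Hspa13, Hspa14, Ppif and Ppig. Of the 16 called higher with the block, 11 were lost when centring was added, while the 5 called lower were kept. The authors' deposited table tested 53 members and gave 13 as higher (24.5%, beside 29.2% of its genes) and 3 as lower (5.66%, beside 7.09%). Its list held all 11 members above together with Dnajb4, Dnajc3, Dnajc15, Dnajc21 and Hspbp1.

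Rates were missing from the knockout for many chaperone genes. Of 68 members with wild-type degradation rates at both times, 13 (19.1%) lacked any rate in Fmr1-KO cells, beside 19.5% of all genes. They were Tcp1, Cct3, Cct6a, Hspd1, Hspe1, Dnajb11, Dnajb14, Dnajc8, Dnajc16, Dnajc17, Fkbp1b, Ppil1 and Bag5. Both genes of the mitochondrial chaperonin and 3 of the 8 CCT subunits were thus outside every comparison of genotypes. A further 7 had a single knockout degradation rate, Dnajb1 had rates in the knockout only (0.135 and 0.126), and Hspa12a and Ppil3 had none. Whether a missing rate means a transcript that was low or an estimate that failed was not tested.

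At steady state the ratio of synthesis rate over degradation rate is the level of mature RNA. In wild type this ratio was the same at 20 and 60 min, within 0.001 on the log2 scale, for 63 of 68 members, and the ratio of synthesis to processing rate for 62 of 62. The wild-type rates of those members thus differed between times by 1 factor common to a gene's rates. In the knockout the synthesis to degradation ratio was equal between times for none of 49 members (beside 0.271% of all genes), and the synthesis to processing ratio for 5 of 44 (11.4%, beside 5.81%). For Pfdn5 the ratio was 29.8 at both times in wild type, and it was 3.42 and 2.57 in Fmr1-KO cells. For Hsph1 it was 29.5 in wild-type cells and 9.35 and 9.43 in Fmr1-KO cells, and for Hspbp1 53.7 against 9.59 and 7.35. For Dnajb9 it was 5.60 in wild-type cells and 28.7 and 26.8 in Fmr1-KO cells. The ratio was thus lower in both knockout libraries for the first set and higher for Dnajb9. Hspa9 also had the higher ratio in both knockout libraries, with 17.8 in wild-type cells and 48.5 and 40.7 in Fmr1-KO cells. The single knockout ratios of Pfdn1 (748 at 20 min, against 14.6) and Pfdn4 (224 at 60 min, against 8.41) were far higher. So was that of Hspa4l at 60 min (247, against 11.0), which was 23.8 at 20 min. Each rests on 1 library with a very low degradation rate (0.00272, 0.00833 and 0.00215). The 10th percentile of the listed rates was 0.0431. Whether rates this low are sound estimates was not tested.

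Within the chaperone genes, the change in degradation rate ran with the base composition of the transcript. Over the 48 members, Spearman's rho with the GC percentage of the GENCODE transcript was 0.495, beside 0.312 over 5555 genes. The same coefficient was −0.403 with the number of ATTTA motifs in the 3′ UTR (−0.253 over all genes), −0.334 with 3′ UTR length (−0.196) and −0.323 with transcript length (−0.112). GC percentage also ran with the change in synthesis rate, in the other direction (rho −0.261 over 49 members and −0.375 over 5613 genes). For processing rate its rho was −0.108 over 43 members and 0.029 over 5003 genes. These features are related to each other, and genes are not independent replicates, so no p-value is given. Of the 9 members called higher, 6 had no ATTTA in the 3′ UTR, namely Pfdn5, Fkbp2, Fkbp9, Ppie, Bag1 and Hspb11, whose transcript model has no 3′ UTR, beside 7 of the 37 members not called. Dnajc9, Dnajb2 and Hsph1, also called higher, had 4, 2 and 2. The median GC content was 52.5% for those called higher and 47.0% for those not called. Of the 2 called lower, Dnajb9 had 40.6% and Dnajc1 had 48.8%, on either side of the members not called. Transcript models were chosen from the annotation, and the isoforms these neurons use were not tested.

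Dnajb9, with the steepest fall called without the block, had 4 such motifs in a 3′ UTR of 1398 bases. Dnajc9, a called rise, also had 4, in a 3′ UTR of 727 bases. Dnajb4, whose steeper fall passed with the block, had 3. The number of motifs did not go with a high wild-type rate in every member: Hspa4l had 18 motifs and Dnajb14 had 17, with wild-type degradation rates of 0.0472 and 0.0444 and of 0.0756 and 0.0863. The sites of Dnajb9 are shown because of its fall. Each is the 21 bases around the motif, read 5′ to 3′ in GRCm38 on the minus strand of chromosome 12, with ATTTA in capitals and named by its first base in the 3′ UTR.
Dnajb9 at 366: taccatagATTTAcattgtgt
Dnajb9 at 481: tttgagtcATTTAgtgaagaa
Dnajb9 at 760: tcgtatgaATTTAtttttggt
Dnajb9 at 1050: ctataaatATTTAcaacctga
The motif at 760 continues into a run of T.

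Synthesis rates of the chaperone genes were not shown to differ between genotypes. All 4 synthesis rates were listed for 49 members. By limma none had an adjusted p under 0.05 (0% of the 5794 genes tested passed), and 0 members had an unadjusted p under 0.05, beside 0.311% of all genes. None passed with the block, and the authors' deposited table called 0 of its 55 members. The median log2 change was 0.08 for the members and −0.03 for all genes. Both knockout libraries lay above both wild-type ones for 6 members (12.2%, beside 8.92%) and below for 6 (12.2%, beside 9.20%), and for 21 members the sign differed between labelling times. The widest differences came from the 20 min libraries. Dnajc9 had synthesis rates of 0.377 and 0.572 in wild-type cells and 1.48 and 0.786 in Fmr1-KO cells (log2 change 1.22, SE 0.51, limma adjusted p = 1.00). Fkbp9 had 0.153 and 0.223 in wild-type cells and 0.807 and 0.211 in Fmr1-KO cells, so that only the 20 min library stood out (log2 change 1.16, SE 0.73, limma adjusted p = 1.00). Hspb11 had 0.931 and 1.04 in wild-type cells and 0.238 and 0.827 in Fmr1-KO cells (log2 change −1.15, SE 0.68, limma adjusted p = 1.00). Of the members called for degradation rate, Pfdn5 (1.36 and 0.995 in wild type, 1.66 and 1.18 in the knockout) and Dnajb9 (2.91 and 3.66, 3.12 and 3.21) had overlapping synthesis rates in the genotypes. Those of Dnajc9 and Dnajc1 lay higher in both knockout libraries, and those of Hsph1, Ppie and Hspb11 lower, without passing.

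Heat shock genes are classically controlled at synthesis, by the heat shock factor HSF1, which binds inverted repeats of GAA in promoters, and endoplasmic reticulum chaperones by factors of the unfolded protein response. RefSeq promoter windows (GRCm38.p6, 250 bases before to 50 after the start) were matched for 59 members. The motif GAANNTTC or TTCNNGAA, which reads the same on both strands, was present for 12 of these members (20.3%, beside 17.0% of all genes with a window). The motif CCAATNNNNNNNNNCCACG, the endoplasmic reticulum stress element, searched on both strands, was present for Dnajc3 only (0.137% of all genes). ATGACGTGG, a further unfolded protein response motif, was present for no member, beside 0.104% of all genes. A match is a description of these letters, not evidence of a bound factor.

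The GAA motif was in the windows of Cct2, Cct5, Cct6a, Dnaja1, Dnajb4, Dnajb6, Dnajc10, Dnajc27, Fkbp4, Hspd1, Hspe1 and Hsph1. The stretch of Hspe1 is shown for its overlapping matches, that of Hsph1 because its degradation rate was called, that of Cct5 as an example with a single match, and that of Dnajc3 as the single match of the stress element. They are read 5′ to 3′ on the gene's strand with the match in capitals, and were chosen after values were seen. The first lies upstream of Hspe1 and, on the other strand, upstream of the RefSeq start of Hspd1, and its 3 overlapping matches fall in the windows of both genes. The GENCODE model of Hspd1 starts further out, overlaps Hspe1 and contains this stretch. The positions are chr1:55088045-55088090 (plus strand) for Hspe1, chr5:149636350-149636393 (minus) for Hsph1, chr15:31601861-31601904 (minus) for Cct5 and chr14:118937811-118937861 (plus) for Dnajc3.
Hspe1: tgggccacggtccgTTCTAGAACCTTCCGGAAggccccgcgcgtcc
Hsph1: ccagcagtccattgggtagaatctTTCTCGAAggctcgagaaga
Cct5: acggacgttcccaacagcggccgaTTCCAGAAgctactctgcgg
Dnajc3: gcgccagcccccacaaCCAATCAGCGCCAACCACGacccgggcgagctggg
Among the stretches printed, that of Hspe1 holds overlapping matches. The window of Hsph1 also holds overlapping matches, after its start, which are not shown. Synthesis rates of Hsph1 were 1.94 and 1.77 in wild-type cells and 1.63 and 1.64 in Fmr1-KO cells, those of Cct5 were 2.25 and 3.49 against 3.21 and 3.22, and those of Dnajc3 were 0.356 and 1.20 against 0.977 and 1.49. Hspe1 had synthesis rates in wild type only, of 2.63 and 2.02.

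Processing rates, the speed at which introns are removed, leaned lower in the knockout for chaperone genes as for genes at large, and no member passed without the block. All 4 processing rates were listed for 43 members. By limma none had an adjusted p under 0.05 (0% of the 5082 genes tested passed), and 10 had an unadjusted p under 0.05 (23.3%, beside 15.4% of all genes). The authors' deposited table called 0 of its 53 members. The median log2 change was −0.41 for the members and −0.36 for all genes. Centring on library medians took away a shift of −0.35, and the members' median was then −0.06. Both knockout libraries lay below both wild-type ones for 19 members (44.2%, beside 35.1%) and above for 8 (18.6%, beside 11.5%). With labelling time as a block, 11 members were called lower (25.6%, beside 19.3%) and 4 higher (9.30%, beside 6.26%). With the block and centring together, 2 were called lower (4.65%, beside 6.40%), namely Pfdn5 and Ppie, and 3 higher (6.98%, beside 7.14%), namely Bag2, Fkbp2 and Hspa9, so the larger number of lower calls was not kept.

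Ppie, whose product belongs to the spliceosome, had the lowest log2 change of the 43. Its processing rate was 21.1 and 22.0 in wild-type cells and 3.34 and 3.50 in Fmr1-KO cells, 6.30-fold lower (log2 change −2.66, SE 0.40, limma adjusted p = 0.102, or 0.00803 with the block). Hsph1 had 17.6 and 16.1 in wild-type cells and 6.43 and 6.49 in Fmr1-KO cells (log2 change −1.38, limma adjusted p = 0.217, or 0.0194 with the block and 0.0563 with the block and centring). Pfdn5 had 10.9 and 7.95 in wild-type cells and 4.11 and 2.75 in Fmr1-KO cells (log2 change −1.47, limma adjusted p = 0.233, or 0.0172 with the block). Dnajb2 had 2.26 and 1.76 against 0.989 and 0.622 (log2 change −1.35, limma adjusted p = 0.261, or 0.0214 with the block and 0.0546 with the block and centring). Hspb11 had 20.3 and 22.6 against 2.88 and 10.9 (log2 change −1.93, limma adjusted p = 0.288, or 0.0402 with the block and 0.130 with the block and centring). With a library left out, the change of Hspb11 ran from −2.89 to −0.97. In these genes called for faster degradation, every knockout processing rate lay below every wild-type one.

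The 4 members called higher with the block were Bag2, Fkbp2, Dnajc9 and Hspa9. Bag2, a co-chaperone that inhibits the ubiquitin ligase CHIP, had processing rates of 3.46 and 4.76 in wild-type cells and 20.5 and 13.0 in Fmr1-KO cells (log2 change 2.01, SE 0.46, limma adjusted p = 0.163, or 0.0194 with the block). Fkbp2 had 0.481 and 0.652 in wild-type cells and 2.13 and 1.57 in Fmr1-KO cells (log2 change 1.71, limma adjusted p = 0.181, or 0.0212 with the block). Dnajc9 had 3.39 and 5.15 against 17.0 and 9.13 (log2 change 1.58, limma adjusted p = 0.246, or 0.0475 with the block and 0.0577 with the block and centring). Fkbp2 and Dnajc9 thus had higher listed processing rates beside their called rises in degradation rate, while Hsph1, Pfdn5, Dnajb2, Hspb11 and Ppie had lower ones.

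**Figure D3:**
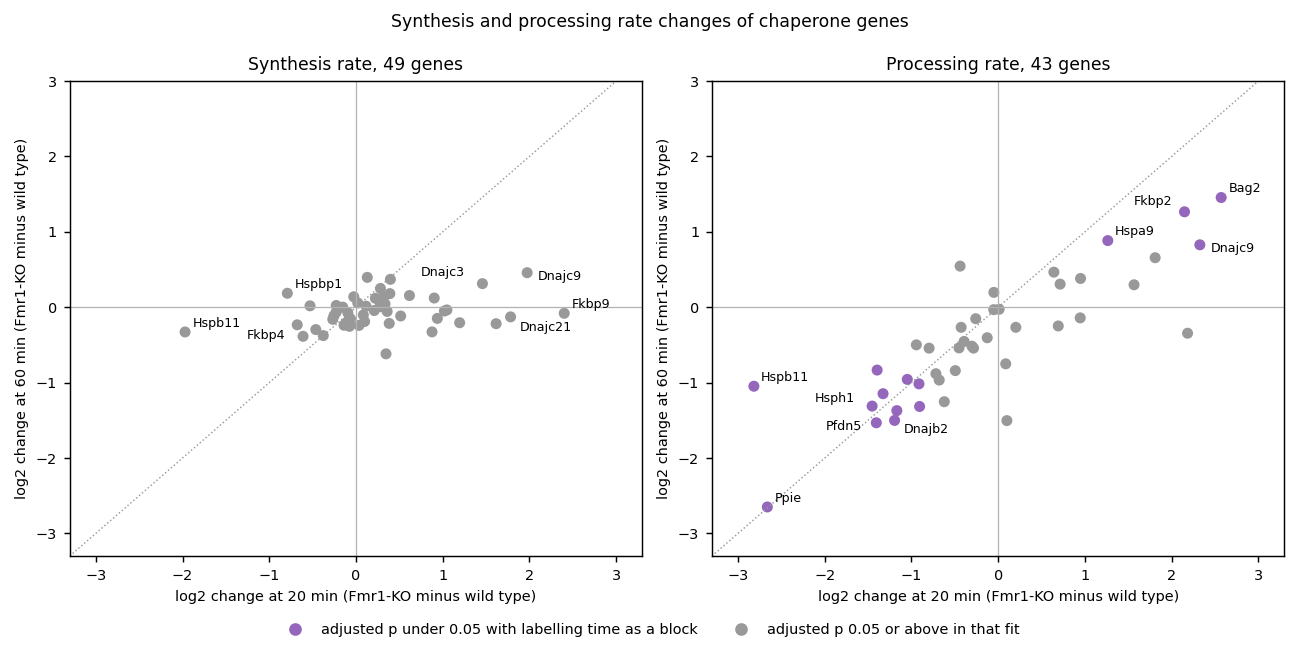
Log2 change (Fmr1-KO minus wild type) at 20 min (horizontal) and 60 min (vertical) of synthesis rate for 49 chaperone genes (left) and of processing rate for 43 (right); purple marks an adjusted p under 0.05 when labelling time was a block, and the dotted line marks equal changes. Synthesis changes spread more along the 20 min axis than along that of 60 min, while for processing Ppie lies on the dotted line, Hspb11 lies far from it, and the sign differs between times for 9 of the 43 genes.

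Tcp1 and Hspa9 had lower wild-type processing rates than all other members with a listed rate, and Cct6a was also low, though above Fkbp2. Tcp1 (chromosome 17, 12915701 to 12925067, plus strand) had rates of 0.0988 and 0.108 in wild type, the fourth lowest of 7311 genes at 20 min and the seventh lowest of 7341 at 60 min. Hspa9 had 0.137 and 0.199 in wild type, ranks 7 and 26, and 0.330 and 0.367 in the knockout, ranks 34 of 5852 and 86 of 5681 (log2 change 1.07, limma adjusted p = 0.326, or 0.0376 with the block and 0.0356 with the block and centring). Cct6a (chromosome 5, 129786998 to 129846371, plus strand) had 0.660 and 0.962, ranks 97 and 288. The median of the other members was 9.41 and 7.93 in wild type, and the lowest of them was Fkbp2 with 0.481 and 0.652. Tcp1, Hspa9 and Cct6a were also the only members with a small nucleolar RNA (snoRNA) gene of the same strand inside them in the GENCODE annotation. This link was noticed in the data, so it is a description without a test. Over all genes with a snoRNA gene inside, the median wild-type processing rate was 5.16 at 20 min (142 genes) and 4.52 at 60 min (143 genes), against 7.39 and 7.29 for the others. Snora20, inside Tcp1, and Snora15, inside Cct6a, are by name of the H/ACA type, which guides the change of uridine to pseudouridine in other RNAs and ends in an ACA box. Such RNAs are released from the intron and kept after splicing, and whether their reads entered the intronic signal behind these rates was not tested.

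The intronic snoRNA of Tcp1 is shown whole because it marks the host with the lowest rates, read 5′ to 3′ in GRCm38 with the letters ACA near the 3′ end in capitals. Snora20 lies in an intron of Tcp1 at chr17:12922790-12922917 (plus strand).
Snora20: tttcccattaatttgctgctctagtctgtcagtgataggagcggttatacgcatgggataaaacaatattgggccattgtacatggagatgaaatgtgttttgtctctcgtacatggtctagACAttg
After these letters 3 bases follow. The CCT subunits that hold no annotated snoRNA gene had wild-type processing rates from 6.68 (Cct8 at 20 min) to 38.2 (Cct3 at 60 min).

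**Figure D4:**
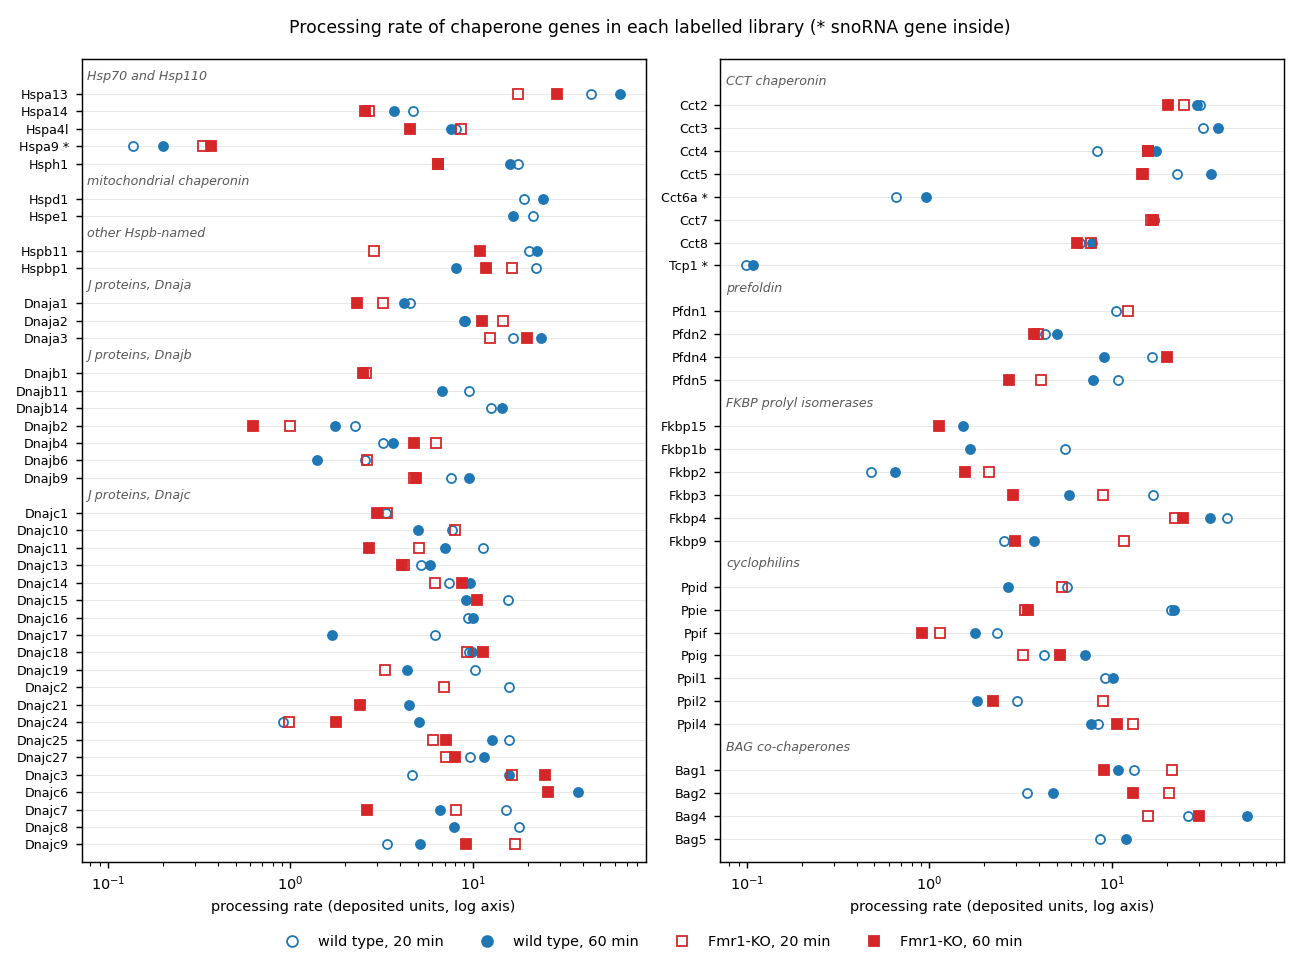
Processing rate (deposited units, log axis) of each chaperone gene with a listed rate, by family, in the 4 labelled libraries; symbols are as in the plot of degradation rates, and an asterisk marks genes with a snoRNA gene inside. Tcp1 and Hspa9 sit at the far left, below 0.4 in every library with a rate, and Cct6a below 1 in wild type.

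Genes of the wider folding network were read from the same fits. A list of 64 further genes, of heat shock factors, co-chaperones, folding enzymes of the endoplasmic reticulum and mitochondria, tubulin cofactors and unfolded protein response factors, had 50 in the table and 37 with all 4 degradation rates. Of these, 9 were called higher (24.3%, beside 20.5% of all genes) and 0 lower (beside 2.57%), with a median log2 change of 0.83. With the block 16 were higher (43.2%, beside 38.2%) and 0 lower (beside 9.76%). With the block and centring together 7 were higher (18.9%, beside 13.9%) and 7 lower (18.9%, beside 22.4%), and with centring alone none passed. The difference from the members was not tested. Ahsa1, an activator of Hsp90, had degradation rates of 0.0482 and 0.0508 in wild-type cells and 0.441 and 0.438 in Fmr1-KO cells (log2 change 3.15, limma adjusted p = 0.0235). Vbp1, which encodes a further prefoldin subunit, had 0.0705 and 0.0581 in wild-type cells and 0.465 and 0.409 in Fmr1-KO cells (log2 change 2.77, limma adjusted p = 0.0235), in the same direction as Pfdn5. The mitochondrial Hsp90 gene Trap1 (log2 change 3.03), the gene Sil1 of a nucleotide exchange factor of the endoplasmic reticulum (3.02) and the tubulin cofactor gene Tbcd (2.79) also rose. Grpel1 and Grpel2, the genes of nucleotide exchange factors of mitochondrial Hsp70, had log2 changes of −0.39 and −0.48 (limma adjusted p = 0.549 and 0.307). Hsf1 had rates of 0.0600 and 0.0413 in wild-type cells and 0.128 and 0.0859 in Fmr1-KO cells (log2 change 1.08, limma adjusted p = 0.121, or 0.0383 with the block). No gene of the list passed for synthesis (37 tested) or processing (35 tested) without the block. With it, 1 was called higher in processing rate (2.86%, beside 6.26% of all genes) and 10 lower (28.6%, beside 19.3%), and with the block and centring 1 higher (2.86%, beside 7.14%) and 5 lower (14.3%, beside 6.40%).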

How the data were processed

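RNA of 4 labelled libraries, 2 per genotype, was analysed from 1 table of synthesis, processing and degradation rates, which per the file headers and the labels are INSPEcT rates, linear values of 0 or above that the authors deposited in a unit other than counts. The submitters' processing notes name cutadapt, Bowtie2, TopHat2, HISAT2, limma and the build mm10, with no versions. How the spike-ins of 10% by weight were used is not given in the sources used here. The authors also deposited limma tables that, per the file headers, hold log2 fold changes with mean log2 rates, p-values with adjusted p-values, and score columns (the moderated statistic and log odds, not used further). All columns of per-sample values were used (0 set aside).

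Genes needed a finite rate above 0 in each of the 4 libraries, and their log2 rates were compared by limma 3.58.1 in R 4.3.3 (lmFit, eBayes without trend, two-sided, Benjamini-Hochberg over all genes tested, threshold 0.05). The procedure was tested on simulated data. The labels give both genotypes the same labelling times, and the difference between times correlated between genotypes across genes (degradation rate: Spearman rho 0.652; synthesis rate: 0.735; processing rate: 0.735), so a fit that takes labelling time as replicate block is printed beside calls it changed. The members and lists were chosen with earlier results of these data known. Named were called members that moved the same way at both times, members of a list by role, and the CCT and prefoldin subunits; other genes named were chosen after their values were seen. Alternatives were the block, centring on library medians, both together, quantile normalization, a filter at the 25th percentile of mean log2 rate, a pseudocount set to the 10th percentile (0.0431, 0.306 and 1.93 for degradation, synthesis and processing), eBayes with trend, a threshold of 0.01, the deposited tables, and leaving out each library. GENCODE M21 (GRCm38) gave positions, transcripts and snoRNA sequences, matched by symbol, and RefSeq (GRCm38.p6) gave promoters. Sequences of the other snoRNA genes inside members are not reported here.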

Additional observations from a re-analysis of the deposited data

How the results depend on the processing

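The 11 calls in degradation rate became 21 with labelling time as a replicate block, 1 with centring, 18 with both, 6 with quantile normalization (4 of the 11, namely Dnajb9, Dnajc1, Dnajc9 and Pfdn5, with Dnajb4 and Hspbp1) and 0 at a threshold of 0.01, and stayed between 10 and 16 with the low-rate filter, the pseudocount, the trend and the authors' deposited table. The 0 calls in processing rate became 15 with the block and 5 with the block and centring. The 0 calls in synthesis rate were 0 in every setting run. The members' median log2 change in degradation rate, 0.57, was −0.28 with centring, with or without the block, −0.27 with quantile normalization, 0.42 with the pseudocount and 0.41 in the authors' deposited table. Leaving out each library in turn gave 0.19 to 0.63, the lowest without the knockout 20 min library. The median in processing rate, −0.41, was −0.061 with centring, with or without the block, −0.025 with quantile normalization, and −0.40 to −0.26 with a library left out. The median in synthesis rate, 0.08, ran from −0.064 to 0.30, the highest without the knockout 60 min library.

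Degradation changes turned in sign for 12 of 48 members with centring and 8 with quantile normalization, 0 of them called. Processing changes turned for 7 of 43 with each, and synthesis changes for 0 and 2 of 49. Among the degradation changes printed above, those that turned were Bag2 (−0.30 with centring, with or without the block, and −0.28 with quantile normalization), Cct7 (−0.73 and −0.54), Cct8 (−0.65 and −0.20) and Pfdn2 (−0.24 and −0.26), and with centring alone or with the block Cct2 (−0.018) and Dnajc6 (−0.027). Fkbp3 was 0.21 and Cct4 0.0080 in the authors' deposited table. With a library left out, Fkbp3 ran from −2.29 to 0.38, Cct4 from −0.55 to 0.54 and the synthesis change of Hspbp1 from −1.03 to 0.42. Centring turns the members' balance from 29 of 48 changes above 0 to a median below 0, because the knockout libraries have the higher median rate. The median of all genes also falls below 0 with it. Which scaling is right cannot be told apart here. A genotype with a library left out has 1, so those settings give values and no test. The depth behind each rate is unknown, so no counting interval is given.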
